A study of Homo sapiens with 9 samples.

Results

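The genes described here are 7 hair-type genes of CAL-27 cells: KRTAP2-3, KRT34, KRT75, KRT80, KRT81, KRT83 and KRT86. They were taken by exact gene name from the 33216 genes listed for each library, and all 7 were found. They had been selected on results of these same libraries, that is, with their FPKM differences between groups known, so those differences are given as a description. The members went through the same fit as all genes, and where its thresholds are named for a member this describes the size and spread of its values and supports nothing.

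CAL-27 cells, long kept in culture, derive from a squamous carcinoma of the human tongue. The study transfected them with siRNA to knock down LEF1 (siLEF1) or KDM4A (siKDM4A), set a Control group beside these, and sequenced polyadenylated RNA at 48 h. Each of the 3 groups had 3 libraries, described as independent samples. All 9 libraries came from this one tumour line, and neither the siRNA given to Control nor which of the study's siRNAs was used for each knockdown in these libraries is given in the sources used here.

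Keratins are the intermediate filament proteins of epithelial cells, and each filament pairs an acidic type I keratin with a basic type II keratin. Hair keratins and the keratin-associated proteins (KRTAP genes), which are rich in cysteine and cross-link the filaments, make up the hard hair shaft and are normally made in the cortex and cuticle of the follicle. LEF1 is a DNA-binding partner of β-catenin with a well-known part in hair follicle differentiation, and KDM4A is a histone lysine demethylase. Among the members, KRT34 is a type I hair keratin, KRT81, KRT83 and KRT86 are closely related type II hair keratins, KRT75 is a type II keratin of the companion layer and nail bed, and KRT80 is a type II keratin found in many epithelia as well as in the follicle.

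Levels are FPKM, that is, fragments scaled to the exon length of the gene and to the fragments of the library. Whole reads were recovered from these values, and the libraries held 15286116 to 17151465 reads on genes. LEF1 fell from 1.15 ± 0.14 FPKM in Control (SD, n = 3) to 0.249 ± 0.020 in siLEF1, and KDM4A from 16.5 ± 0.094 to 2.77 ± 0.011 in siKDM4A, so both knockdown labels were borne out by their targets. Each target was also somewhat lower in the other knockdown, LEF1 at 0.880 ± 0.067 FPKM in siKDM4A and KDM4A at 14.0 ± 0.25 FPKM in siLEF1. All 7 squamous epithelial markers reached a mean of 1 FPKM in Control and siLEF1, and 6 of 7 did in siKDM4A, where KRT14 lay at 0.591 to 1.07 FPKM. PTPRC, the pan-leukocyte marker, was at 0 in every Control and siKDM4A library and reached at most 0.014 FPKM with siLEF1. CD3E, another listed leukocyte marker, was above 0 in every library. Its highest values were 0.299 FPKM (Control), 0.199 FPKM (siLEF1) and 0.129 FPKM (siKDM4A). CD68, also on that list, was at 0 throughout siKDM4A and at most 0.060 FPKM elsewhere.

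Differences between groups are on the scale of log2(FPKM + 0.1), fitted with limma over every gene that averaged 0.1 FPKM or more across both groups compared. A gene was called when its adjusted p was below 0.05 and its fold change exceeded 1.5. In siLEF1 against Control, 3 of the 5 members above that filter were called, 2 higher and 1 lower, where 11.6% of the 21831 genes tested were called (6.31% higher and 5.31% lower). In siKDM4A against Control, 2 of 5 were called higher and 1 lower, against 12.0% of 21253 genes (4.23% higher and 7.80% lower). Between the knockdowns, siKDM4A against siLEF1, 1 of 5 was called higher and 1 lower, against 15.3% of 21493 genes (5.28% higher and 10.0% lower). Since the members were picked for moving in these contrasts, nothing is read from these counts. KRT75 and KRT83 were below the filter in every comparison. The median difference over the 5 members was 0.69, 0.23 and -0.31 in these comparisons, in that order, beside -0.0069, -0.054 and -0.055 over all genes tested.

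**Figure D1:**
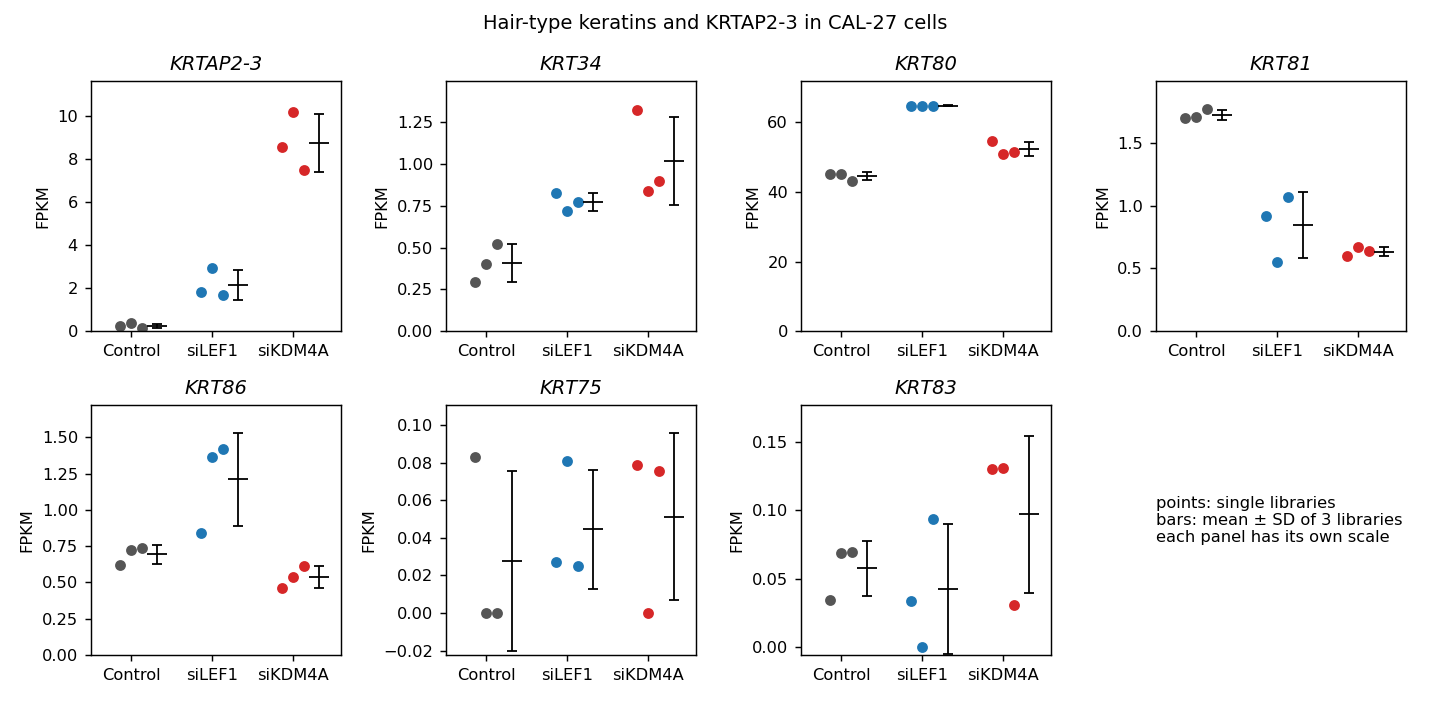
FPKM of each member in the 9 libraries (points), with the mean ± SD of 3 libraries per group beside them; each panel has its own vertical scale. KRTAP2-3 reaches at most 0.368 FPKM in Control, spans 1.68 to 2.94 in siLEF1 and is at least 7.47 in siKDM4A, while KRT75 and KRT83 do not exceed 0.131 FPKM.

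KRTAP2-3, a high-sulphur keratin-associated protein of the hair shaft, differed most among the members. It stood at 0.220, 0.368 and 0.150 FPKM in the Control libraries, 1.80, 2.94 and 1.68 FPKM in siLEF1, and 8.57, 10.2 and 7.47 FPKM in siKDM4A. The 3 groups did not overlap, and their order was Control, siLEF1, siKDM4A. In bulk RNA a higher level per cell and more cells with the transcript cannot be told apart. The Control values rested on 3, 5 and 2 reads, at about the floor of 3 reads per library (0.20 to 0.22 FPKM for this gene), whereas siLEF1 had 25 to 41 reads per library and siKDM4A 112 to 145.

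Set against library depth, KRTAP2-3 reads were 8.64 times the Control level in siLEF1, with a 95% counting interval of 4.49 to 18.6. In siKDM4A they were 35.3 times the Control level, with an interval of 19.0 to 74.3. Between the knockdowns the ratio was 4.09, with an interval of 3.24 to 5.20. These intervals are exact binomial ones and cover counting error alone. The fitted log2 differences were 2.70 ± 0.32 (SE) for siLEF1, 4.71 ± 0.24 for siKDM4A and 2.01 ± 0.22 between the knockdowns. With so few Control reads they depended on the pseudocount: adding 1 FPKM in place of 0.1 gave 1.32, 2.96 and 1.64.

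KRTAP2-3 is a single-exon gene of 875 bases on the minus strand of chromosome 17, at chr17:41059240-41060114 (GRCh38, GENCODE release 29). Of its 100-base windows, 34.0% occur letter for letter in KRTAP2-4, 26.2% in KRTAP2-1 and 25.1% in KRTAP2-2, so reads from these windows cannot be assigned to 1 copy. KRTAP2-2, whose midpoint lies 4.81 kb away, had 1 read in all 9 libraries, and KRTAP2-1 and KRTAP2-4 are not among the listed genes. Its level is therefore that of the gene and of any copy whose reads were counted with it.

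KRTAP2-3 lies among the KRTAP genes of chromosome 17, next to the type I keratins. The files list 12 other genes that overlap the 100 kb on each side of it. Only KRTAP1-5, another high-sulphur protein of the shaft, reached 50 reads in a group. KRTAP1-5, which is no member, reached at most 0.111 FPKM in Control (5 reads in all), 0.150 to 0.268 in siLEF1 (11 reads) and 0.777 to 0.989 in siKDM4A (50 reads). Its difference was 2.32 ± 0.27 for siKDM4A against Control (limma, adjusted p = 0.00086) and 1.72 ± 0.26 for siKDM4A against siLEF1 (limma, adjusted p = 0.0021). For siLEF1 against Control it was 0.60 ± 0.38 (limma, adjusted p = 0.29). The Control mean of KRTAP1-5, 0.092 FPKM, was below the filter of 0.1 FPKM. It was thus tested against Control only through its knockdown libraries. The list that holds KRTAP1-5 was also chosen with earlier results of these data known, so all its p-values are a description.

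The other 11 neighbours had 4 reads in Control, 7 in siLEF1 and 32 in siKDM4A, each over 3 libraries. Of those 32 reads, 14 were of KRTAP4-8, which lay at 0, 0.211 and 0.503 FPKM in the 3 siKDM4A libraries and at 0 in the other 6. KRTAP4-8 was not called (limma, adjusted p = 0.19 against Control and 0.17 against siLEF1). It passed the filter only through its siKDM4A libraries, so these p-values are a description. The plot of reads by distance shows KRTAP2-3 and KRTAP1-5 standing above neighbours with at most 14 reads in a group.

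**Figure D2:**
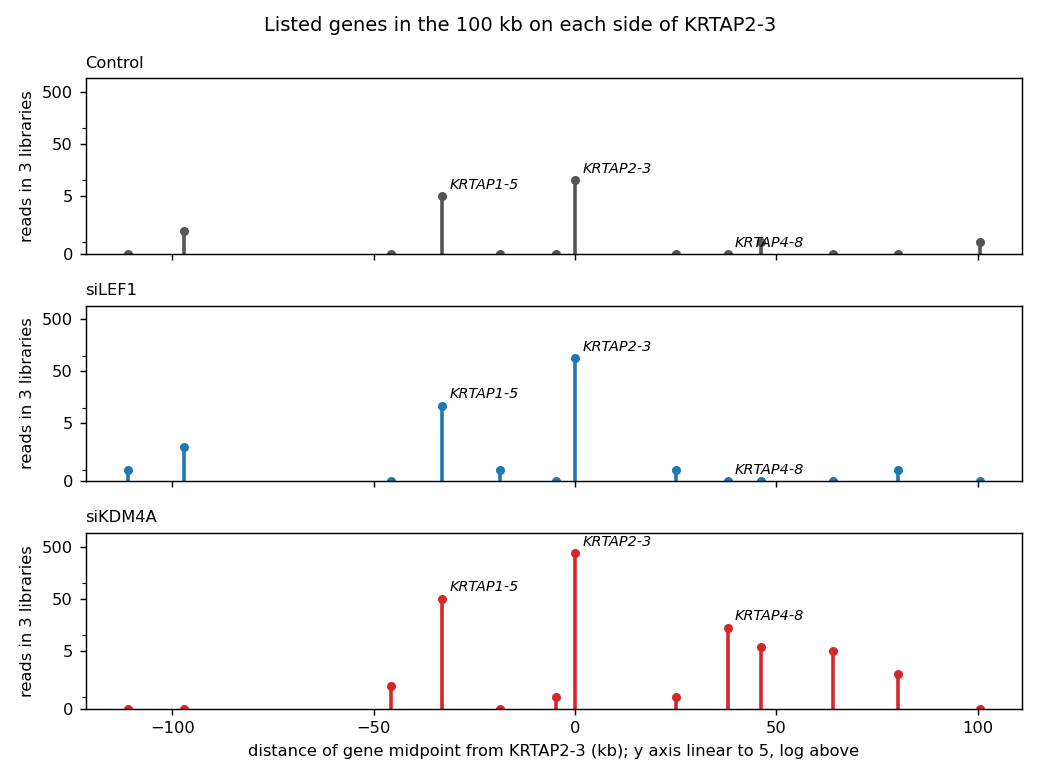
Reads summed over the 3 libraries of each group (vertical axis, linear to 5 and logarithmic above) for the genes listed in the 100 kb on each side of KRTAP2-3, by distance of their midpoints in kb. KRTAP2-3 has 10, 91 and 380 reads and KRTAP1-5 has 5, 11 and 50 in Control, siLEF1 and siKDM4A.

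Over the whole family, 27 other KRTAP genes were listed, and 23 to 25 of them were below the filter in each comparison. KRTAP4-1 was the best expressed, at 1.08 ± 0.37 FPKM in Control, 1.42 ± 0.099 in siLEF1 and 0.903 ± 0.19 in siKDM4A. It was called lower in siKDM4A than in siLEF1, with a log2 difference of -0.61 ± 0.18 (limma, adjusted p = 0.034), a call kept in 4 of 15 alternative analyses. As for KRTAP1-5, this p-value is a description. Apart from KRTAP1-5 and KRTAP4-1, the other KRTAP genes together had 14 reads in Control, 31 in siLEF1 and 46 in siKDM4A, fewer than KRTAP2-3 alone in either knockdown.

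The sequence before the start site is shown for KRTAP2-3, for KRTAP1-5, which was also higher in siKDM4A, and for the type I hair keratin KRT34. These are the 250 bases upstream of the RefSeq start (GRCh38.p14), all read 5′ to 3′ on the minus strand of chromosome 17. They lie at chr17:41060115-41060364, chr17:41027209-41027458 and chr17:41382307-41382556. Capitals mark matches to the LEF/TCF-type letters CTTTGA or CTTTGT, searched on both strands (so also TCAAAG and ACAAAG), and to TATAAA, searched on both strands (also TTTATA).
KRTAP2-3: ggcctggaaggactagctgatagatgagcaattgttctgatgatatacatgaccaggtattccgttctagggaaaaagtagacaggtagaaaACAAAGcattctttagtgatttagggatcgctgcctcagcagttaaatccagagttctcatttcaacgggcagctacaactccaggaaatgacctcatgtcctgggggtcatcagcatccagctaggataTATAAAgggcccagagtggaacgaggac
KRTAP1-5: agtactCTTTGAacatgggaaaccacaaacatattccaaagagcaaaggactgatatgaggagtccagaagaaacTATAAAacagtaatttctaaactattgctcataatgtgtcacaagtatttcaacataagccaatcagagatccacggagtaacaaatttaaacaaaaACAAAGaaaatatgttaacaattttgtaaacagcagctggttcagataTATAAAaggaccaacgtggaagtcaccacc
KRT34: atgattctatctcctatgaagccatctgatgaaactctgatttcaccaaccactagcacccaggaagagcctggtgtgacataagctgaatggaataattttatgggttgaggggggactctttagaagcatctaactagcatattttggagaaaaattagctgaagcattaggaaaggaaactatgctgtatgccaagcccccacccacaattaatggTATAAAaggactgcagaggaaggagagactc
KRTAP2-3 held 1 LEF/TCF-type match, ACAAAG, at bases 158 to 153 before the start. KRTAP1-5 held 2, CTTTGA at bases 244 to 239 and ACAAAG at bases 78 to 73, and KRT34 held none. Such a match occurs in 22.8% of the 35116 promoter windows of the same length, and a TATAAA match in 10.7% of them. TATAAA began 28, 30 and 31 bases before the start of KRTAP2-3, KRTAP1-5 and KRT34, with a second copy in KRTAP1-5 at bases 175 to 170, and no match overlapped one of the other kind. Promoter sequence was at hand for 3 of the 7 members, and the window of KRT75 held neither motif. That window too lies partly inside the GENCODE span of its gene.

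KRT34, the type I hair keratin among the members, was higher in both knockdowns at a low level. It stood at 0.293, 0.405 and 0.524 FPKM in Control, 0.828, 0.717 and 0.771 in siLEF1, and 1.32, 0.840 and 0.900 in siKDM4A. Every knockdown library lay above every Control library, and siKDM4A lay above siLEF1 by a narrow margin, 0.840 against 0.828 FPKM at their nearest. The log2 difference was 0.81 ± 0.24 (SE) for siLEF1 and 1.14 ± 0.26 for siKDM4A, and 0.34 ± 0.20 between the knockdowns. The thresholds were missed in 9 of 14 alternative analyses for siLEF1, leaving out Control replicate 1 or 2 or any siLEF1 library among them. They were missed in 3 of 14 for siKDM4A, including the fit without siKDM4A replicate 1, which gave 0.96.

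The remaining hair and root sheath keratins were close to absent. KRT34 lies at chr17:41377650-41382403, on the minus strand, with 7 exons (overlapping exons merged) and 8 to 38 reads per library, and 0.847% of its 100-base windows are shared, all with KRT33B. Of 10 other type I hair keratins only KRT31, KRT33B and KRT39 are listed, none of the 3 other type II hair keratins is, and of 8 inner root sheath keratins only KRT72 is. Together these 4 genes had 4 reads in Control, 6 in siLEF1 and 3 in siKDM4A, so no change in them was detectable at this depth.

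The type II hair keratins KRT81 and KRT86 moved differently from each other. KRT81 stood at 1.70, 1.70 and 1.77 FPKM in Control, 0.915, 0.553 and 1.07 in siLEF1, and 0.600, 0.667 and 0.636 in siKDM4A. Both knockdowns lay wholly below Control, while the siLEF1 and siKDM4A libraries overlapped. The log2 difference was -0.99 ± 0.23 for siLEF1 and -1.31 ± 0.13 for siKDM4A, and -0.32 ± 0.25 between the knockdowns. Both differences from Control met the thresholds, that of siLEF1 not without Control replicate 3 (-0.97). KRT81 was thus lower in the same groups in which KRTAP2-3 and KRT34 were higher.

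KRT86, the close relative of KRT81 whose span contains it, was highest in siLEF1 and lowest in siKDM4A. It stood at 0.617, 0.726 and 0.739 FPKM in Control, 0.843, 1.36 and 1.42 in siLEF1, and 0.458, 0.537 and 0.610 in siKDM4A. All 3 siLEF1 libraries lay above Control and all 3 siKDM4A libraries below it, by as little as 0.610 against 0.617 FPKM. The log2 difference was 0.69 ± 0.22 for siLEF1, which did not meet the thresholds, -0.33 ± 0.19 for siKDM4A, which did not either, and -1.02 ± 0.24 between the knockdowns, which met both. Without siLEF1 replicate 1 the difference of siLEF1 from Control was 0.91 and met them. It also met them in 1 fit of 9 libraries (0.69) and with voom on the recovered reads (0.76). The difference between the knockdowns missed them without siLEF1 replicate 2 or 3 (-0.92 and -0.89) and with a pseudocount of 1 (-0.52). The plot of KRT81 against KRT86 separates the 3 groups.

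**Figure D3:**
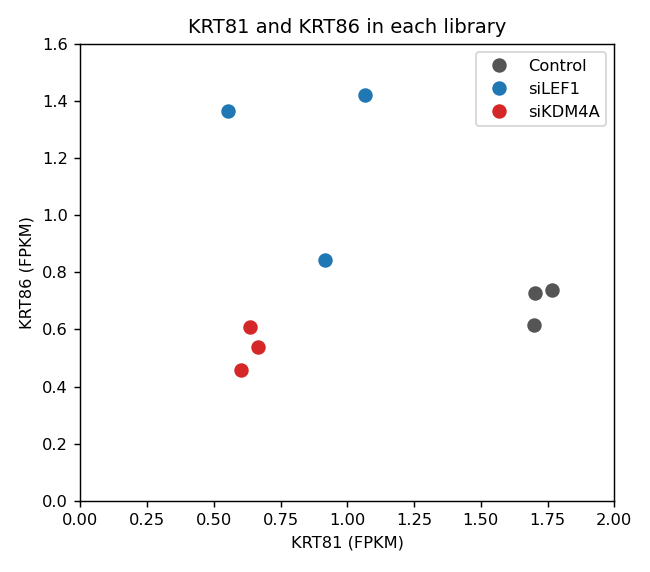
KRT86 against KRT81, both in FPKM, one point per library, coloured by group. Control libraries lie to the right (KRT81 1.70 to 1.77), siLEF1 libraries at the top (KRT86 0.843 to 1.42) and siKDM4A libraries at the lower left (KRT81 0.600 to 0.667, KRT86 0.458 to 0.610).

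As a share of the reads of this pair, KRT81 made up 66.7 ± 1.9% in Control (SD, n = 3), 36.3 ± 11% in siLEF1 and 49.0 ± 3.0% in siKDM4A. The summed level of the pair was 2.42 ± 0.095 FPKM in Control, 2.05 ± 0.38 in siLEF1 and 1.17 ± 0.098 in siKDM4A. The sum was 1.76, 1.92 and 2.49 FPKM in the siLEF1 libraries, of which only siLEF1 replicate 3 lay within the Control range of 2.32 to 2.51, and every siKDM4A value, at most 1.25, lay below both groups. The share of KRT81 was lower than in Control in every knockdown library.

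The genes are hard to separate by sequence. KRT81 (chr12:52285913-52291534, minus strand, 9 exons) lies wholly inside the span of KRT86 (chr12:52249300-52309163, plus strand, 12 exons), with no exon base in common. Of the 100-base windows of KRT81, 28.8% also occur in KRT86, and 23.5% of those of KRT86 occur in KRT81, so reads from these windows could fall to either gene. The libraries were made with a kit that keeps the strand, but whether the counting used it is not given in the sources used here. Each value rested on 17 to 58 reads.

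KRT83, the third type II hair keratin of this locus (chr12:52314301-52321398, minus strand, 9 exons), was near its detection floor. Its libraries held 1, 2 and 2 reads in Control, 1, 0 and 3 in siLEF1, and 4, 4 and 1 in siKDM4A, and the groups overlapped. KRT75, the companion layer keratin (chr12:52424070-52434525, minus strand, 9 exons), held 3, 0 and 0 reads in Control, 1, 3 and 1 in siLEF1, and 3, 0 and 3 in siKDM4A. At such counts no difference was detectable for KRT83 or KRT75, and a floor of 3 reads corresponds to 0.093 to 0.105 FPKM for KRT83 and 0.075 to 0.085 for KRT75. KRT75 also shares 221 exon bases with AC055736.1 on the opposite strand.

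KRT80 was by far the most abundant member, and its groups differed by small but well separated steps. It stood at 45.2, 45.3 and 43.1 FPKM in Control, 64.8, 64.6 and 64.8 in siLEF1, and 54.5, 50.8 and 51.5 in siKDM4A, from 2863 to 4802 reads per library. The groups did not overlap, and siKDM4A lay between Control and siLEF1. The mean was 45.4% above Control in siLEF1 and 17.5% above it in siKDM4A, with log2 differences of 0.54 ± 0.026 and 0.23 ± 0.037. Neither reached a fold of 1.5 and KRT80 was not called. Between the knockdowns the difference was -0.31 ± 0.031.

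KRT80 lies at chr12:52168996-52192000, on the minus strand, with 8 exons, inside the span of LINC00592 on the opposite strand but with no exon base in common. None of its 100-base windows occurs in another gene. It made up 8.24 ± 0.24% of the summed FPKM of the 19 listed type II keratins in Control, 12.9 ± 0.15% in siLEF1 and 13.4 ± 0.44% in siKDM4A. The summed type II level was 540 ± 7.4, 502 ± 5.8 and 389 ± 2.3 FPKM in these groups, so in siKDM4A the larger share went with a smaller total. The other 6 members summed to 3.15 ± 0.18, 5.05 ± 0.60 and 11.1 ± 1.3 FPKM, most of the last being KRTAP2-3.

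Counting groups that did not overlap, as a description, gave all 5 members above the filter in siLEF1 against Control (4 higher, 1 lower), where 46.3% of all genes tested did not overlap. It gave 5 of 5 in siKDM4A against Control (3 higher, 2 lower), against 47.1% of all genes. It gave 4 of 5 between the knockdowns (2 higher, 2 lower in siKDM4A), against 49.6%, KRT81 being the exception. The plot of differences sets the 3 comparisons side by side. The comparisons with Control share its 3 libraries.

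**Figure D4:**
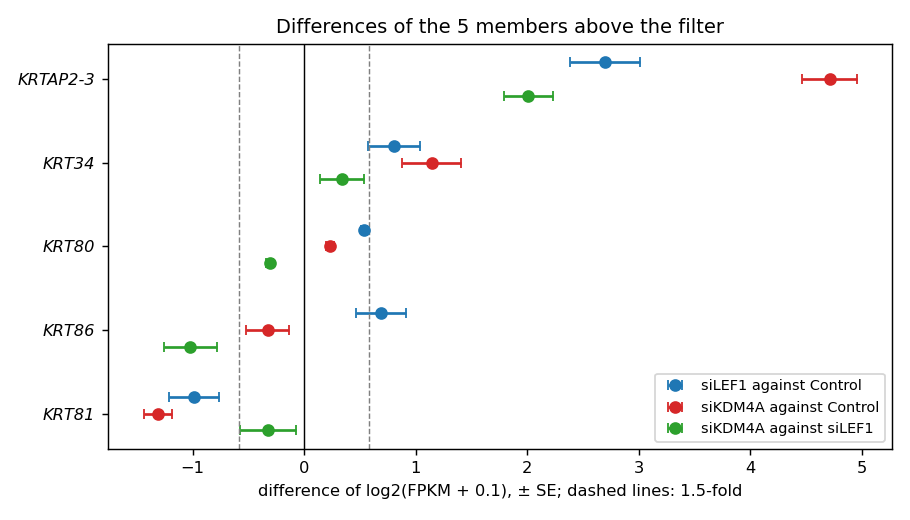
Difference of log2(FPKM + 0.1) with its SE for the 5 members above the filter, in the 3 comparisons; dashed lines mark a fold of 1.5 in either direction. KRTAP2-3 lies at 2.70, 4.71 and 2.01, KRT34 to the right of 0 throughout, KRT81 to the left, and KRT86 on both sides.

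Of the other epithelial keratins, 7 fell in siKDM4A against Control, among them the main basal and stress keratins. Over all genes tested, 7.80% were called lower and 4.23% higher. This list too was chosen with earlier results of these data known, so its counts and p-values are a description. Of 28 such keratins, 26 were listed and 12 tested in this comparison by limma, with a median log2 difference of -1.60. None rose past both thresholds, by limma or by voom on the recovered reads, and 2 were higher at an unadjusted p below 0.05. These were KRT8, with 0.42 ± 0.025 (limma, adjusted p = 5.1e-05), and KRT18, with 0.50 ± 0.024 (limma, adjusted p = 2.2e-05), which passed the adjusted threshold and missed the fold. Those that fell include KRT5, the basal layer type II keratin, with a log2 difference of -3.19 ± 0.056 (limma, adjusted p = 9.5e-07), and its partner KRT14, with -4.95 ± 0.21 (limma, adjusted p = 1.5e-05). KRT6A, the wound and stress keratin, had -5.23 ± 0.18 (limma, adjusted p = 7.3e-06). In siLEF1 against Control 2 of 14 tested rose and none fell, by limma or voom, where limma called 6.31% of all genes higher and 5.31% lower. Another 3 keratins were lower at an unadjusted p below 0.05. These were KRT8 (limma, adjusted p = 8.4e-05), KRT18 (limma, adjusted p = 0.0017) and KRT6A (limma, adjusted p = 0.013), which missed only the fold. The risers were KRT6B by 0.997 ± 0.14 (limma, adjusted p = 0.0019) and KRT15 by 0.87 ± 0.16 (limma, adjusted p = 0.0062). KRT16 was also higher, by 0.52 ± 0.079 (limma, adjusted p = 0.0027), and missed only the fold. Of the 4 hair-type keratins above the filter, KRT34 and KRT80 were higher in siKDM4A than in Control and KRT81 and KRT86 were lower, with KRT80 and KRT86 not called. The KRT6 genes are near-identical copies, so the split of reads between them is uncertain.

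Genes that govern or accompany the hair programme were called in both directions. Their lists were chosen with earlier results of these data known. The counts here and the p-values of the listed genes below are therefore a description. The 65 hair-programme genes, 46 of them listed, take in the other hair and root sheath keratins, the other KRTAP genes, follicle regulators and shaft proteins. In siLEF1 against Control 16 were tested, 1 rising and 1 falling, where 11.6% of all genes tested were called (6.31% higher and 5.31% lower). In siKDM4A against Control 4 of 18 rose and 3 fell, beside 12.0% of all genes (4.23% higher and 7.80% lower). KRTAP1-5, among the 4 that rose, and KRTAP4-8, among the 18, passed the filter there only through their siKDM4A libraries. Between the knockdowns 3 of 18 were higher and 3 lower in siKDM4A, beside 15.3% (5.28% higher and 10.0% lower). The median difference of the hair-programme genes tested was 0.044, -0.066 and -0.029 in these comparisons.

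HOXC13, a homeobox factor known to activate hair keratin genes, fell in both knockdowns. Its Control level of 2.71 ± 0.45 FPKM compared with 1.34 ± 0.075 under siLEF1 (limma, adjusted p = 0.0023). Under siKDM4A it was 1.43 ± 0.096 FPKM (limma, adjusted p = 0.0037). DLX3, a homeobox factor of the follicle and epidermis, fell in siKDM4A, with a log2 difference of -0.79 ± 0.19 (limma, adjusted p = 0.018), a call lost in 5 of 15 alternatives, with a pseudocount of 1 and without Control replicate 2 or 3 or siKDM4A replicate 1 or 2 (adjusted p of 0.052 to 0.069 without these libraries). GATA3, a factor of the inner root sheath, rose in siKDM4A from 1.70 ± 0.089 to 4.48 ± 0.12 FPKM (limma, adjusted p = 4e-05), and SOX9, a follicle stem cell factor, from 13.6 ± 0.66 to 24.6 ± 0.41 (limma, adjusted p = 2.8e-05). CTNNB1, which encodes β-catenin, MSX2, LHX2, VDR and CUX1 were tested and not called in any comparison.

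Among shaft and sheath proteins, S100A3, a calcium-binding protein of the cuticle, fell in siKDM4A from 10.8 ± 0.91 to 4.10 ± 0.13 FPKM (limma, adjusted p = 3.2e-05). LIPH, a lipase needed for hair growth, rose in siKDM4A from 1.51 ± 0.056 to 2.57 ± 0.15 FPKM (limma, adjusted p = 0.0012). PADI3, the deiminase that modifies trichohyalin, was at 1.19, 0.283 and 0.247 FPKM in Control. Its siLEF1 libraries lay at 1.52 to 1.76 FPKM and its siKDM4A libraries at 0.173 to 0.325. It was called higher in siLEF1 (limma, adjusted p = 0.041), a call lost in 7 of 15 alternatives, among them each fit without a siLEF1 library or without Control replicate 2 or 3, with adjusted p up to 0.12. TCHH and LPAR6 were tested and not called in any comparison.

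Marker genes of other cells were low, and some differed between the groups. The summed FPKM of 3 endothelial markers ran from 0.694 to 1.25 in Control, then 1.96 to 2.39 with siLEF1 and 2.46 to 2.86 with siKDM4A, in the same order as KRTAP2-3, nearly all of it CDH5. PECAM1 stayed below 0.11 FPKM and VWF below 0.16. The 4 listed fibroblast markers summed to 3.03 to 3.74, 4.84 to 5.62 and 2.99 to 3.22 FPKM, and 3 melanocyte markers to 0.170 to 0.417, 0.389 to 0.742 and 0.356 to 0.397. Their part in the differences of the members was not tested.

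The genes whose pattern over the 9 libraries was nearest to each member were taken from the 14923 genes that averaged 0.5 FPKM or more, by the root mean square (RMS) difference of log2(FPKM + 0.1) after subtraction of the Control mean. For KRTAP2-3 they were DEFB4A, a beta-defensin, at an RMS of 0.701, COL8A1, a short-chain collagen, at 0.920, and AL512422.2 at 1.03. DEFB4A averaged 0.113 ± 0.098 FPKM in Control, 2.27 ± 0.40 in siLEF1 and 7.59 ± 1.2 in siKDM4A, and its near-identical copy DEFB4B leaves its counts uncertain. For KRT34 the nearest were EIF3FP3, a pseudogene, at 0.160, DOK3 at 0.168 and CSGALNACT1 at 0.177.

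For KRT80 the nearest patterns were those of TPM2, a tropomyosin, at an RMS of 0.0311, RACGAP1, a cytokinesis protein, at 0.0332 and KIRREL1 at 0.0466. The RMS grows with counting noise and with the size of the differences. KRT80 had by far the most reads of the members, so RMS values are not compared between members. TPM2 stood at 36.5 ± 0.90, 53.7 ± 0.77 and 42.3 ± 2.2 FPKM in Control, siLEF1 and siKDM4A. For KRT81 they were ACER2, a ceramidase, at 0.156, MIRLET7BHG at 0.204 and NATD1 at 0.213. For KRT86 they were LINC01270 at 0.128, ALOXE3, an epidermal lipoxygenase, at 0.169 and SPOCD1 at 0.177. None of the nearest genes was another member.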

How the data were processed

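RNA-seq libraries of CAL-27 cells numbered 9, with 3 each of Control, siLEF1 and siKDM4A. The authors deposited FPKM per gene and library, scaled to gene length and library size. The submitters' processing notes name Trimmomatic, HISAT2, HTSeq, Cufflinks and hg38, with no versions, and the annotation is not given in the sources used here. Whole reads were recovered from the FPKM steps. Exon lengths of GENCODE release 29 gave whole reads for 94.0% of the 18048 genes above 0 in all libraries, and for the rest the length was chosen that did (tolerance 0.02 reads). Replicates differed by more than counting noise (chi-square per gene 2.01 to 3.53).

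Comparisons used limma 3.58.1 in R 4.3.3 (lmFit and eBayes with a trend) on log2(FPKM + 0.1) of the genes averaging 0.1 FPKM or more, with Benjamini-Hochberg adjustment over all genes tested, and each was fitted on its own 6 libraries. Where the libraries are not separate cultures, p-values measure only technical spread. Low counts were compared by exact binomial (Clopper-Pearson) intervals, which cover counting error only. Summaries used Python 3.11.15 and pandas. Alternatives were pseudocounts of 1 and 0.01, no filter, a mean of at least 1 FPKM, no trend, 1 fit of 9 libraries, median-ratio scaling, a replicate block, voom on recovered reads and each library left out.

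The members and lists were chosen with earlier results of these data known. The text names every member, LEF1 and KDM4A, listed genes that passed both thresholds or reached a mean of 1 FPKM, near-identical copies, and the 3 genes nearest in pattern to each member that averaged 0.5 FPKM or more. KRTAP4-8 was named after its values were seen. Promoter windows are from RefSeq (GRCh38.p14).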

Additional observations from a re-analysis of the deposited data

Results flagged for a closer look

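KRT86 lay on opposite sides of Control in the knockdowns: all 3 siLEF1 libraries (0.843, 1.36 and 1.42 FPKM) lay above all 3 Control libraries (0.617, 0.726 and 0.739), and all 3 siKDM4A libraries (0.458, 0.537 and 0.610) lay below them. Neither difference from Control met the thresholds, and the nearest siKDM4A and Control libraries were 0.610 and 0.617 FPKM. The difference of siKDM4A from siLEF1, -1.02 on the log2 scale, met the thresholds, but not without siLEF1 replicate 2 or 3 or with a pseudocount of 1. KRT86 was chosen on these libraries, so these calls are a description, and no test on other samples was possible. Of its 100-base windows, 23.5% are shared with KRT81, which was lower than Control in both knockdowns.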

How the results depend on the processing

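None of 218 alternative values of the members changed direction, and 198 kept their side of the thresholds, 17 no longer met them and 3 newly met them. Since the members were selected on these libraries, this is a description and no support for them. The difference of KRTAP2-3 ran between 1.32 and 3.11 for siLEF1, 2.96 and 5.17 for siKDM4A and 1.64 and 2.25 between the knockdowns. A pseudocount of 1 lowered the genes called to 1405, 1462 and 1841 (siLEF1 against Control, siKDM4A against Control, siKDM4A against siLEF1) from 2538, 2556 and 3289. In the same order it lowered the members called to 1, 2 and 1 from 3, 3 and 2. A filter at a mean of 1 FPKM left 1 member called between the knockdowns, with 2 tested. Without a trend, 1 hair-programme gene was called in siLEF1 against Control.

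Leaving out each library in turn gave 2239 to 2347, 2278 to 2430 and 2905 to 3077 genes called. It gave 2 to 3, 2 to 3 and 1 to 2 members, the lower count between the knockdowns without siLEF1 replicate 2 or 3, and 1 to 2, 6 to 7 and 5 to 6 hair-programme genes. Besides KRT34 and KRT86, KRT81 lost its siLEF1 call with a pseudocount of 1 and without Control replicate 3. Same-numbered libraries did not deviate together (correlations of -0.04 to 0.04 over 12586 genes), so the replicate numbers are not taken as pairs. With the replicate block 2245, 2305 and 2953 genes were called, and KRT34 lost both of its calls against Control. The causes were not tested. The quasi-likelihood count test planned for recovered reads was not run because the deposited unit is FPKM. Depth limits KRT75, KRT83, the other hair keratins and most KRTAP genes, which had a few reads per library at most.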
